A study of Homo sapiens with 18 samples.

Results

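Transcripts of 8 NF-kB pathway and feedback genes were followed in SJSA-1 cells, a human osteosarcoma cell line that carries extra copies of the MDM2 gene. The genes were NFKBIA, NFKBIE, NFKBIZ, RELB, TNFAIP3, BIRC3, TRAF1 and ICAM1, 8 of the 3074 genes of the expression table. They were chosen by name with earlier results of these data known. Counts and medians of the 8 set beside those of all genes are therefore descriptions. Cells received the vehicle DMSO or neocarzinostatin (NCS, 1 µg/mL), an agent that breaks DNA, for 72 h. After 48 h this was renewed, and for the remaining 24 h the cells also had DMSO or, at 1 µM, either MI-1061 or MD-224. MI-1061 is an inhibitor of MDM2, the ubiquitin ligase that holds p53 low, and MD-224 is a compound that causes degradation of MDM2. The 6 groups, each of 3 libraries of poly(A)-enriched RNA, are called DMSO, MI-1061, MD-224, NCS, NCS+MI-1061 and NCS+MD-224. The DMSO group had vehicle in both steps, the MI-1061 and MD-224 groups had vehicle first and then the compound, and the NCS group had NCS and then NCS with vehicle. Below, "after NCS" stands for cells that had NCS for all 72 h, with compound or vehicle added to it at 48 h. All share 1 cell line, and the labels name no engineered allele. The series title places the work in the control of the innate response to cytosolic DNA by MDM2.

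NF-kB is a family of dimeric transcription factors that sit inactive in the cytoplasm, bound by IkB proteins. Signals from cytokine receptors, pattern recognition receptors or DNA damage lead to the phosphorylation and breakdown of IkB, and the freed dimers enter the nucleus. Many of their targets switch the pathway off again, among them the IkB genes themselves and enzymes that trim ubiquitin chains from the signalling complexes. In senescent and DNA-damaged cells NF-kB is known for driving inflammatory cytokines and adhesion molecules.

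Values are the authors' normalized counts, which are read counts divided by 1 size factor per library. Among the listed genes the ratio of the NCS+MI-1061 mean to the DMSO mean was never below 1.75 (median 3.0). For every other ratio of group means the lowest value over genes was 0.390 or less. How the genes were listed is not given in the sources used here. The listing may set part of the counts in any comparison, most directly in those that use DMSO or NCS+MI-1061 libraries. Listed reads ran from 4490870 to 21816350 per library, and no member had fewer than 64 reads in any library. As checks of the treatments, CDKN1A, the p53-induced cell-cycle inhibitor, was 30.1-fold higher with MI-1061 and 7.67-fold higher with MD-224 than in DMSO, and MDM2, itself a p53 target, 11.6-fold and 3.03-fold. Rescaling the listed genes by the trimmed mean of M values (TMM) sets their typical gene near no change and moved the median log2 difference of all genes by up to 0.99, so it is given beside each comparison. TMM treats most genes as unchanged, whereas every listed gene had a higher mean in NCS+MI-1061 than in DMSO. A call lost or a sign turned with TMM therefore does not tell which scale is right. The libraries are bulk RNA, in which fewer cells of a type and less RNA per cell cannot be told apart. Of the osteoblast-lineage markers, COL1A2 and SPP1, 2 of 9, were among the listed genes, with levels given with the other markers. The labels do not say that the 3 libraries of a group came from separate cultures, so p-values measure the spread between these libraries.

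Promoter sequences from RefSeq (build GRCh38.p14) were found for 6 of the 8 genes, in 9 windows of 250 bases before a transcription start. The decamer known as the NF-kB consensus was searched on both strands as GGGRNNYYCC, where R is A or G, Y is C or T and N is any base. A palindromic match on both strands counts as 1 window. The exact pattern was present in windows of 4 genes, NFKBIA, NFKBIZ, TNFAIP3 and BIRC3, and in 5 of the 9 windows, against 9.96% of all 35116 windows of that length and 12.4% of the 3143 windows of listed genes. 1 window of each is shown because it holds the motif. Sequences are on the gene's strand, 5′ to 3′, and capitals mark the consensus matches.
NFKBIA (chr14:35404750-35404999, minus strand): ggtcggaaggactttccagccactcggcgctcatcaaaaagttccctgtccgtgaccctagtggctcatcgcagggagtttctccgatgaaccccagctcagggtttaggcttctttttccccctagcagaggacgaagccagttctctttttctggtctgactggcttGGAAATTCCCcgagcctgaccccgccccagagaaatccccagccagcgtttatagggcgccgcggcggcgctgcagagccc
NFKBIZ (chr3:101827740-101827989, plus strand): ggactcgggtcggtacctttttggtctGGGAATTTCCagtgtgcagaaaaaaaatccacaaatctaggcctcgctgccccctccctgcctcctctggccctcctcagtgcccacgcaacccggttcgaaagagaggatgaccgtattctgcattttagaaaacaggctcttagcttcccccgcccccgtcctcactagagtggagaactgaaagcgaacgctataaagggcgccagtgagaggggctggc
TNFAIP3 (chr6:137867009-137867258, plus strand): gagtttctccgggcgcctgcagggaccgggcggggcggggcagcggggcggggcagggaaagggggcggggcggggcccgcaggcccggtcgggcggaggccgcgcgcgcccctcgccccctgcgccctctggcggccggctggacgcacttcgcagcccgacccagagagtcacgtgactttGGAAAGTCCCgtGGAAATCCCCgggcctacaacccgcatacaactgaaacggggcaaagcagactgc
BIRC3 (chr11:102317234-102317483, plus strand): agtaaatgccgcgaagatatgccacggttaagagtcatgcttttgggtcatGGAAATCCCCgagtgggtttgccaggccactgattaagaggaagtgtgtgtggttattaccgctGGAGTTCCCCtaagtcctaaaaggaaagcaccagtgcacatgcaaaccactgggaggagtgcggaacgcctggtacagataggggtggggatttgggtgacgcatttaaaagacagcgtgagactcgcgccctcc
In NFKBIA the match lay 81 to 72 bases before the start, and like those of TNFAIP3 and BIRC3 it read on the opposite strand. TNFAIP3 had a pair of matches close together, at 67 to 58 and 55 to 46 bases before the start. BIRC3 had matches at 199 to 190 and 135 to 126 bases, and NFKBIZ at 223 to 214 bases in the window shown. The AP-1 motif TGANTCA (6.57% of all windows) and the p53 decamer (5.57% of all windows) matched none of the members' 9 windows. The windows of TRAF1 and ICAM1 held no exact consensus match. That of ICAM1 holds TGGAAATTCC, which departs from the pattern at its first letter. A match describes letters in a window and shows no binding, and the lack of an exact match does not show that a site is absent.

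NFKBIA (chromosome 14, 35401513 to 35404749, minus strand) encodes IkB-alpha, the inhibitor that NF-kB re-synthesises to end its own signal. Without NCS, NFKBIA was at 1343, 937 and 930.0 normalized counts in DMSO replicates 1 to 3, 1825, 3422 and 2529.9 with MI-1061 and 1379, 1755 and 1545 with MD-224. After NCS, NFKBIA was at 1729.9, 1850.0 and 1859.9 in the vehicle libraries, 3099, 3359 and 2901 with MI-1061 and 2514, 2179.6 and 2471 with MD-224. The means ran from 1070 ± 236 (SD, n = 3) in DMSO to 3120 ± 230 in NCS+MI-1061. The DMSO libraries lay below those of every other group, while MI-1061 spread so widely that it overlapped its neighbours in order, NCS+MD-224 and NCS+MI-1061.

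NFKBIE (chromosome 6, 44258166 to 44265551, minus strand) encodes IkB-epsilon, a slower-acting inhibitor of the same kind. Without NCS, NFKBIE was at 497, 358 and 516 normalized counts in DMSO replicates 1 to 3, 1004, 1071 and 1239 with MI-1061 and 411, 448 and 427 with MD-224. After NCS, NFKBIE was at 765, 716 and 685 in the vehicle libraries, 1563, 1533 and 1369 with MI-1061 and 818, 633 and 803 with MD-224. Its levels fell into steps: MD-224 and DMSO overlapped at the bottom, NCS and NCS+MD-224 overlapped above them, and MI-1061 and then NCS+MI-1061 stood apart at the top. The lowest mean was 428 ± 18.4 in MD-224 and the highest 1488 ± 104 in NCS+MI-1061 (SD, n = 3).

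NFKBIZ (chromosome 3, 101827990 to 101861022, plus strand) encodes IkB-zeta, a nuclear IkB protein that acts as a cofactor on a subset of inflammatory genes. Without NCS, NFKBIZ was at 739.8, 1201 and 619 normalized counts in DMSO replicates 1 to 3, 1662, 3303 and 2442 with MI-1061 and 715, 863 and 687 with MD-224. After NCS, NFKBIZ was at 1397, 1263 and 1297 in the vehicle libraries, 2700.4, 2029 and 2228 with MI-1061 and 1824, 1408 and 1957 with MD-224. MD-224 and DMSO overlapped as the lowest groups, with means of 755 ± 94.6 and 853 ± 307 (SD, n = 3). MI-1061 had the highest mean, 2469 ± 821, but its replicate 1 lay below all NCS+MI-1061 libraries, and the pair of groups overlapped.

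RELB (chromosome 19, 45001464 to 45038192, plus strand) encodes the NF-kB subunit of the non-canonical pathway, and its gene is itself induced by NF-kB. Without NCS, RELB was at 870.0, 937 and 535 normalized counts in DMSO replicates 1 to 3, 1474, 3510.1 and 2729.7 with MI-1061 and 646, 1172 and 778 with MD-224. After NCS, RELB was at 1293, 1673 and 1473 in the vehicle libraries, 2343, 2806 and 2279 with MI-1061 and 1599, 1749.5 and 1856 with MD-224. The order of means was DMSO, MD-224, NCS, NCS+MD-224, NCS+MI-1061 and MI-1061, from 781 ± 215 to 2571 ± 1027 (SD, n = 3). Neighbours in that order overlapped except between MD-224 and NCS and between NCS+MD-224 and NCS+MI-1061. As for NFKBIZ, replicate 1 was the lowest of the MI-1061 libraries.

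TNFAIP3 (chromosome 6, 137866349 to 137883312, plus strand) encodes A20, a ubiquitin-editing enzyme that shuts down signalling from TNF and pattern recognition receptors. Without NCS, TNFAIP3 was at 1259.5, 1131 and 927 normalized counts in DMSO replicates 1 to 3, 2024, 3248 and 3523 with MI-1061 and 1193, 1314 and 1286 with MD-224. After NCS, TNFAIP3 was at 2138, 2031 and 2187 in the vehicle libraries, 4705, 3760.3 and 4093 with MI-1061 and 2894, 2117 and 3193 with MD-224. NCS+MI-1061 stood above all other libraries, with a mean of 4186 ± 479 against 1106 ± 168 in DMSO (SD, n = 3). NCS, NCS+MD-224 and MI-1061 overlapped in the middle.

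BIRC3 (chromosome 11, 102317484 to 102339403, plus strand) encodes cIAP2, a ubiquitin ligase at TNF receptors that also limits cell death. Without NCS, BIRC3 was at 290.0, 206 and 75.7 normalized counts in DMSO replicates 1 to 3, 368, 940.2 and 618 with MI-1061 and 73.4, 149 and 89.0 with MD-224. After NCS, BIRC3 was at 473, 448 and 419 in the vehicle libraries, 1997, 2066 and 2062 with MI-1061 and 910.1, 678 and 846 with MD-224. The NCS+MI-1061 libraries were close together and far above the rest, at 2042 ± 38.8 (SD, n = 3). The NCS+MD-224 mean was 811 ± 120 and the MD-224 mean, the lowest, 104 ± 39.8. DMSO varied most in proportion, with a coefficient of variation of 56.7%.

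TRAF1 (chromosome 9, 120902393 to 120929171, minus strand) encodes an adaptor that binds TNF receptor complexes together with cIAP proteins. Without NCS, TRAF1 was at 127, 67.3 and 71.6 normalized counts in DMSO replicates 1 to 3, 138, 146 and 104 with MI-1061 and 88.3, 109.5 and 85.9 with MD-224. After NCS, TRAF1 was at 319, 354 and 371 in the vehicle libraries, 740.3, 1019 and 919.6 with MI-1061 and 508, 349 and 482 with MD-224. The 3 groups without NCS overlapped in the order of their means, DMSO, MD-224 and MI-1061, and every library with NCS lay above every library without it. NCS+MI-1061 was highest, at 893 ± 141 against 88.6 ± 33.3 in DMSO (SD, n = 3).

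ICAM1 (chromosome 19, 10271120 to 10286615, plus strand) encodes the adhesion molecule bound by leukocyte integrins, a classic NF-kB target. Without NCS, ICAM1 was at 2778, 6346 and 4255 normalized counts in DMSO replicates 1 to 3, 6701, 15038 and 13464 with MI-1061 and 4952, 11145 and 7642 with MD-224. After NCS, ICAM1 was at 9789, 13166 and 12025 in the vehicle libraries, 7639.5, 11018 and 9401 with MI-1061 and 9409, 11541 and 10610.5 with MD-224. Neighbouring groups overlapped throughout, from 4460 ± 1792 in DMSO to 11730 ± 4429 in MI-1061 (SD, n = 3). Replicate 1 was the lowest and replicate 2 the highest library in all 6 groups.

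Per kilobase of exon in the DMSO libraries, ICAM1 was the most abundant of the 8, at 1203 normalized counts per kb, followed by NFKBIA at 451. RELB (257), TNFAIP3 (219), NFKBIE (177) and NFKBIZ (145) followed on the same scale, and BIRC3 (25.3) and TRAF1 (13.7) were lowest. In NCS+MI-1061 the level of BIRC3 reached 272 per kb and that of TRAF1 138.

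**Figure D1:**
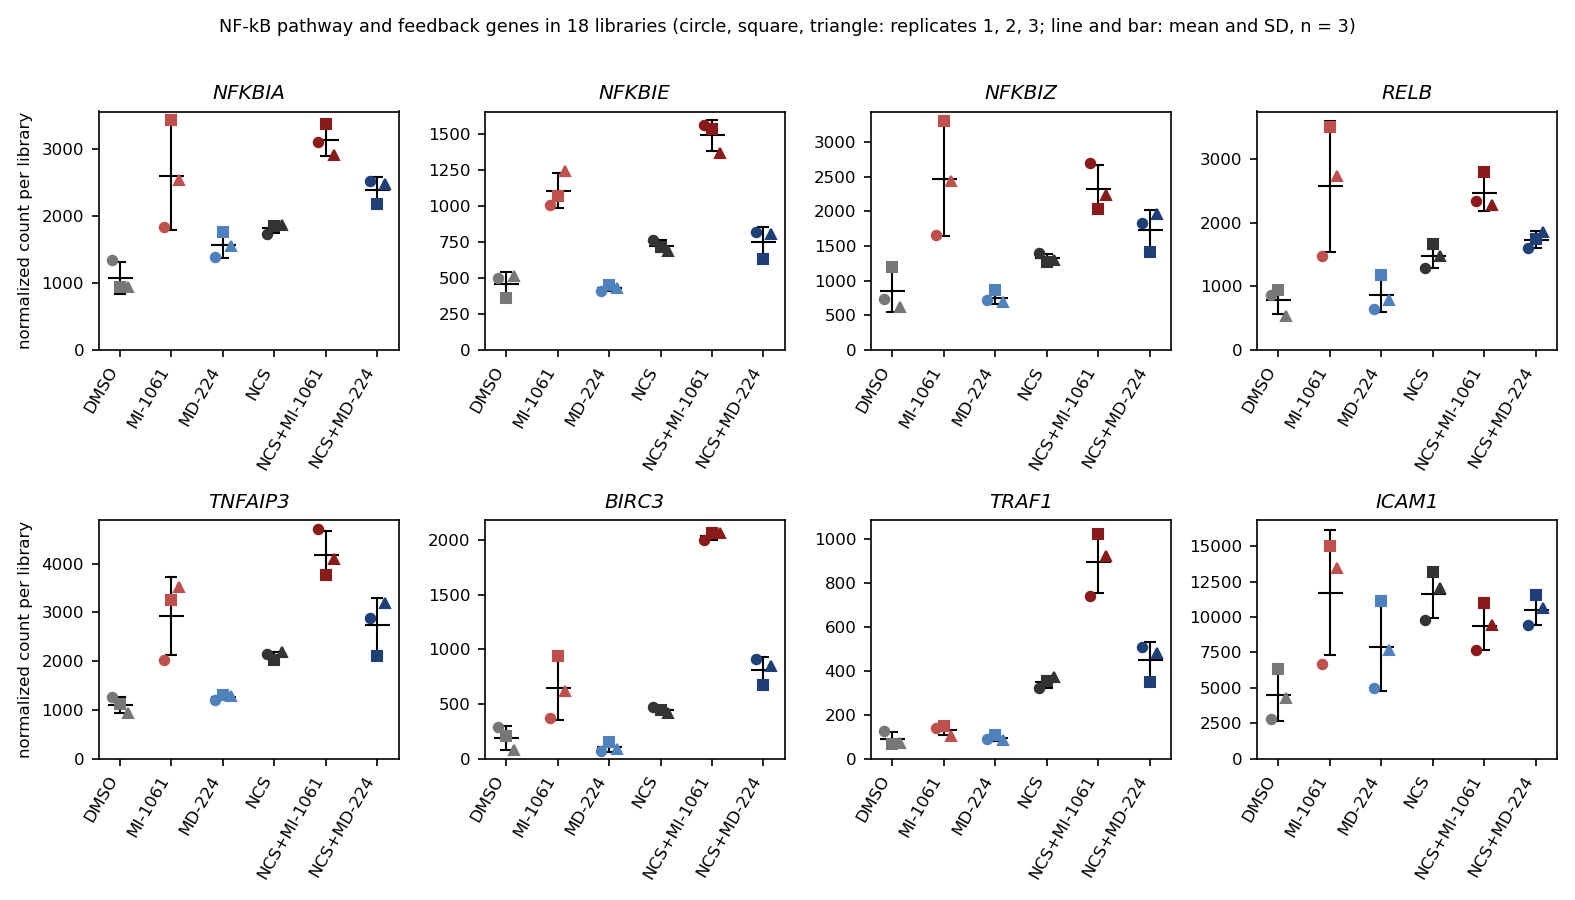
Normalized counts (vertical axes, linear, from 0) of the 8 genes in the 18 libraries, 1 panel per gene and 1 column per group, with symbols for replicates 1 to 3 and a line and bar for the mean and SD (n = 3). The NCS+MI-1061 libraries of BIRC3 lie between 1997 and 2066, above all other groups, whereas for ICAM1 neighbouring groups in the order of means overlap.

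Each comparison was tested with limma on log2(normalized count + 1) over 3073 genes, 2-sided, with Benjamini-Hochberg adjustment over all of them. A gene was called at an adjusted p under 0.05, folds are on that log scale, and brackets after a fold give its 95% interval. Comparisons that use the same control libraries are not independent of each other.

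NCS alone was first compared with DMSO, to ask what 72 h with NCS did. All 8 genes rose, and each kept its direction with TMM. TRAF1 rose most, 4.05-fold (2.83 to 5.81), followed by ICAM1 at 2.74-fold (1.72 to 4.37) and BIRC3 at 2.69-fold (1.52 to 4.76). RELB (1.94-fold) and TNFAIP3 (1.93-fold) came next. The 3 IkB genes rose least, NFKBIA 1.72-fold, NFKBIZ 1.61-fold and NFKBIE 1.6-fold. In all 8 the NCS libraries lay above the DMSO libraries, as they did in 58.7% of all genes. Adjusted p-values from limma ran from 7.16e-06 for TRAF1 to 0.0238 for NFKBIZ. Of all tested genes 54% were called higher (14.9% higher and 15.2% lower with TMM), and the median fold was 1.58 over all genes and 1.93 over the members. With TMM, TRAF1 alone was called, and the other 7 had adjusted p-values of 0.0516 to 0.842. NFKBIZ missed the threshold when DMSO replicate 1 (limma adjusted p = 0.069) or 3 (0.125) or NCS replicate 1 (0.0663) or 3 (0.0514) was left out, and RELB did so without DMSO replicate 3 (0.0528).

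The effect of MDM2 inhibition in cells without NCS was read from MI-1061 and DMSO. All 8 genes rose on the authors' scale, and with TMM 7 kept their direction while TRAF1 turned lower (log2 -0.40). BIRC3 rose 3.60-fold (2.03 to 6.38), RELB 3.18-fold (2.13 to 4.77) and NFKBIZ 2.90-fold (2.04 to 4.12). ICAM1 (2.62-fold), TNFAIP3 (2.60-fold), NFKBIE (2.44-fold) and NFKBIA (2.38-fold) rose by similar factors. TRAF1 rose least, 1.5-fold (1.05 to 2.15), and was the 1 gene whose MI-1061 and DMSO libraries overlapped. The other 7 did not overlap, as in 65.2% of all genes. Adjusted p-values from limma were 0.041 for TRAF1 and at most 0.000829 for the others. The background was 67.6% of genes called higher (30.4% higher and 30.3% lower with TMM), with a median fold of 1.99 against 2.61 for the members. With TMM only RELB was called. The TRAF1 call was lost without DMSO replicate 2 or 3 (adjusted p = 0.162 and 0.139), without MI-1061 replicate 1 or 2 (0.0933 and 0.123), in a limma fit of these 2 groups alone (0.174), and in edgeR on all libraries (0.0578).

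Few of the 8 genes differed between MD-224 and DMSO. NFKBIA rose 1.47-fold (1.12 to 1.94, limma adjusted p = 0.0244) and ICAM1 1.78-fold (1.12 to 2.83, adjusted p = 0.0445), both keeping their direction with TMM. The ICAM1 libraries of the pair of groups overlapped, and those of NFKBIA did not, as in 42.3% of all genes. RELB, TNFAIP3 and TRAF1 were at 1.11, 1.15 and 1.11 times DMSO, and with TMM all 3 turned to the other side (log2 -0.35, -0.29 and -0.34). NFKBIE was at 0.950, NFKBIZ at 0.917 and BIRC3 at 0.601 times DMSO. The interval for BIRC3 was 0.339 to 1.07 and its adjusted p 0.139 by limma. The 2 of 8 called compare with 39.9% of all genes called higher (10.6% higher and 11.6% lower with TMM), and the members' median fold of 1.10 with 1.40 for all genes. With TMM, NFKBIE and BIRC3 were called lower (limma adjusted p = 0.0127 and 0.0266) and the calls of NFKBIA and ICAM1 were lost. Both were also lost in a fit of these 2 groups alone (0.0625 and 0.106), with edgeR (0.105 and 0.116) or DESeq2 (0.0963 and 0.0894) on the 9 libraries without NCS, and without DMSO replicate 3 (0.0913 and 0.0845), MD-224 replicate 2 (0.0889 and 0.204) or MD-224 replicate 3 (0.055 and 0.0941). NFKBIA also lost its call without DMSO replicate 2 (0.0814) and ICAM1 without DMSO replicate 1 (0.203), while BIRC3 was called lower without DMSO replicate 3 (log2 -1.29, 0.00589). Both genes were called with edgeR on all libraries (0.0304 and 0.0448) and with the replicate block, which paired the libraries (limma adjusted p = 0.0176 for NFKBIA and 0.000463 for ICAM1). ICAM1 was higher with MD-224 in each of the 3 same-numbered pairs.

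The inhibitor and the degrader were compared at matched dose and time, over 2 pairs of groups, with p-values adjusted over all genes in each. Without NCS, 6 of 8 were lower with MD-224 than with MI-1061, and TMM left the direction of these 6 in place. BIRC3 was at 0.167 times its MI-1061 level (0.0943 to 0.296), NFKBIZ at 0.316 (0.223 to 0.450) and RELB at 0.347 (0.232 to 0.520). NFKBIE stood at 0.390 (0.309 to 0.491), TNFAIP3 at 0.443 (0.336 to 0.585) and NFKBIA at 0.619 (0.470 to 0.814). In each of these 6 every MD-224 library lay below every MI-1061 library, as in 49.2% of all genes. Adjusted p-values from limma for the 6 ran from 1.61e-06 for NFKBIE to 0.00416 for NFKBIA. TRAF1 (0.735 times, 0.513 to 1.05, adjusted p = 0.127, and log2 0.06 with TMM) and ICAM1 (0.677 times, 0.425 to 1.08, adjusted p = 0.133) were not called. Neither interval shows that the compounds act alike on them. With the replicate number as a block, which paired the libraries here, ICAM1 was called lower (limma adjusted p = 0.0054). ICAM1 was also called without MI-1061 replicate 1 (log2 -0.92, adjusted p = 0.016) and without MD-224 replicate 2 (log2 -0.85, 0.0352). The background was 49.8% called lower (27.7% higher and 30.5% lower with TMM), and the median fold was 0.671 for all genes and 0.417 for the members. With TMM 5 of the 6 calls held and that of NFKBIA was lost (log2 -0.19).

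**Figure D2:**
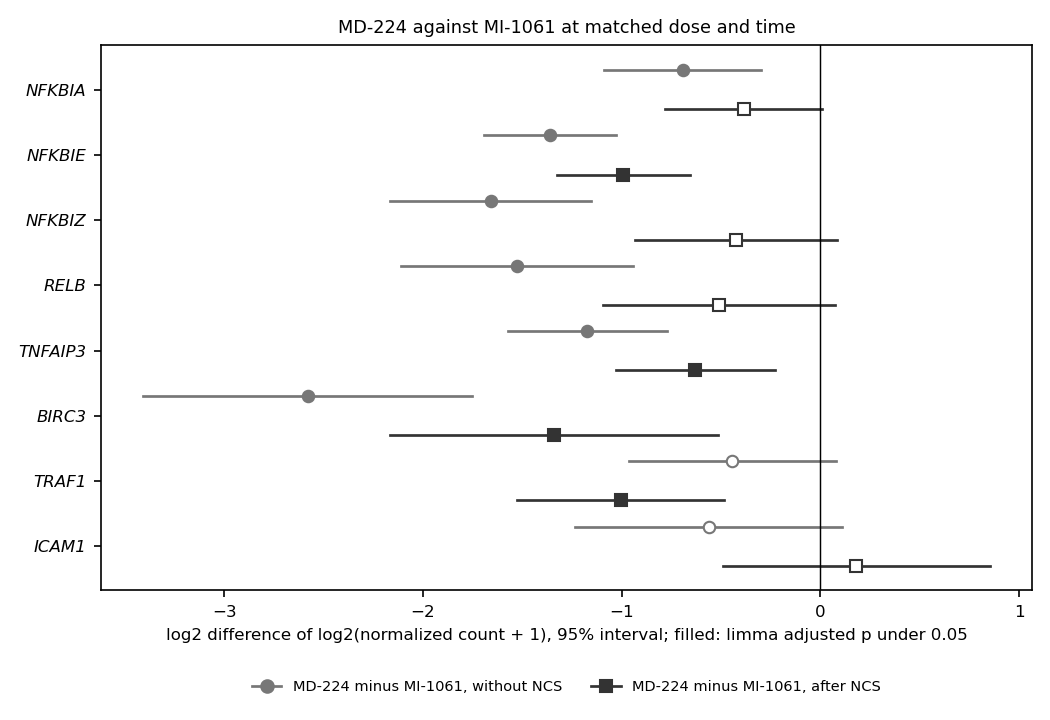
Log2 difference of MD-224 minus MI-1061 (horizontal axis) for each gene without NCS (circles) and after NCS (squares), with 95% intervals from limma and filled symbols for an adjusted p under 0.05. BIRC3 without NCS lies farthest below 0, at log2 -2.58, and with TMM scaling TRAF1 without NCS and NFKBIA, NFKBIZ, RELB and TNFAIP3 after NCS moved to the other side of 0.

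After NCS, 4 of the 8 genes were lower with MD-224 than with MI-1061 on the authors' scale, NFKBIE, TNFAIP3, BIRC3 and TRAF1, and of these TNFAIP3 turned to the other side with TMM (log2 0.04). BIRC3 was at 0.395 times its NCS+MI-1061 level (0.223 to 0.7, limma adjusted p = 0.00783), TRAF1 at 0.498 (0.347 to 0.714, 0.00228), NFKBIE at 0.503 (0.399 to 0.633, 5.32e-05) and TNFAIP3 at 0.646 (0.490 to 0.853, 0.00953). NFKBIA (0.765 times, 0.582 to 1.01), NFKBIZ (0.744, 0.523 to 1.06) and RELB (0.702, 0.469 to 1.05) were not called, and all 3 turned to the other side with TMM (log2 0.28, 0.24 and 0.16). ICAM1 was at 1.13 times (0.712 to 1.80, adjusted p = 0.645). Apart from ICAM1, the NCS+MD-224 libraries of every gene lay below the NCS+MI-1061 libraries, as in 67.7% of all genes. The background of genes called lower was 54.7% (11.6% higher and 17.8% lower with TMM), and the median fold was 0.629 for all genes and 0.674 for the members. With the replicate block, which paired the libraries, RELB was called too (limma adjusted p = 0.049). A limma fit of these 2 groups alone called 7 of the 8 lower, with 1914 of all genes called. Limma with TMM called 0 of the 8, and the TNFAIP3 call was lost without NCS+MD-224 replicate 2 (adjusted p = 0.0659).

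MI-1061 added after 48 h of NCS, with NCS still present, was compared with NCS alone. On the authors' scale 7 genes rose, but NFKBIA, NFKBIZ, RELB and TNFAIP3 turned to the other side with TMM (log2 -0.21, -0.19, -0.25 and -0.02). BIRC3 rose 4.57-fold (2.58 to 8.10), TRAF1 2.55-fold (1.78 to 3.65) and NFKBIE 2.06-fold (1.63 to 2.59), and these 3 kept their direction with TMM. TNFAIP3 rose 1.97-fold, NFKBIZ 1.75-fold, NFKBIA 1.72-fold and RELB 1.67-fold. ICAM1 was at 0.799 times its NCS level (0.502 to 1.27, limma adjusted p = 0.369), and with TMM it was called lower (log2 -1.32, adjusted p = 0.00262). All 7 called genes had NCS+MI-1061 libraries above the NCS libraries, as in 78.7% of all genes. Their adjusted p-values from limma ran from 1.57e-05 for NFKBIE to 0.0232 for RELB. The background was 70.5% called higher (23.9% higher and 19.3% lower with TMM), and the members' median fold of 1.86 lay near that of all genes, 1.96. With TMM BIRC3 was the 1 gene called higher. The RELB call was lost without NCS replicate 1 (adjusted p = 0.0794) or 3 (0.0502) and without NCS+MI-1061 replicate 2 (0.078).

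MD-224 added in the same way, with NCS still present, was compared with NCS alone. The members' fold over NCS ran from 0.906 (0.569 to 1.44) for ICAM1 to 1.80 (1.02 to 3.19) for BIRC3. NFKBIA (1.31-fold, 0.999 to 1.73), NFKBIZ (1.3-fold) and BIRC3 had NCS+MD-224 libraries above the NCS libraries, as had 40.8% of all genes. TNFAIP3 (1.27-fold), TRAF1 (1.27-fold), RELB (1.18-fold) and NFKBIE (1.03-fold) overlapped, and RELB and NFKBIE turned to the other side with TMM. Limma called 0 of the 8, with 1 at an unadjusted p under 0.05, and edgeR and DESeq2 on all libraries called 0. The lowest adjusted p was 0.158, for BIRC3. The background was 15.1% called higher (3.77% higher and 0.195% lower with TMM, and 24.6% higher with the replicate block, which paired the libraries), and the median folds were 1.27 for the members and 1.23 for all genes. In a limma fit of these 2 groups alone NFKBIA (adjusted p = 0.0379) and BIRC3 (0.00509) were called, with 589 of all genes called.

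**Figure D3:**
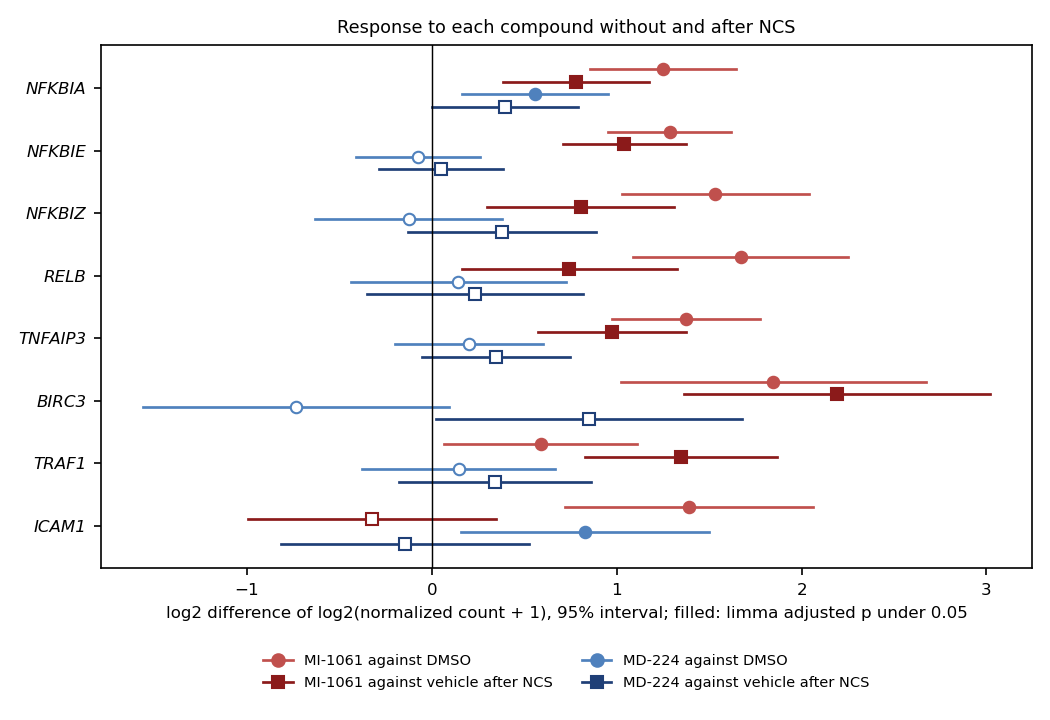
Log2 difference from vehicle (horizontal axis) of MI-1061 (red) and MD-224 (blue), without NCS (circles) and after NCS (squares), with 95% intervals from limma and filled symbols for an adjusted p under 0.05. ICAM1 with MI-1061 is at log2 1.39 without NCS and -0.32 after it, and with TMM scaling several points near 0 and the NCS values of NFKBIA, NFKBIZ, RELB and TNFAIP3 with MI-1061 moved to the other side of 0.

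What NCS did in cells that also met a compound was read against the compound alone. With MD-224 present, 7 of the 8 genes rose after NCS, and all 8 kept their direction with TMM. BIRC3 rose 8.05-fold (4.54 to 14.3), TRAF1 4.65-fold (3.24 to 6.66) and NFKBIZ 2.28-fold (1.6 to 3.24). TNFAIP3 rose 2.13-fold, RELB 2.06-fold, NFKBIE 1.74-fold and NFKBIA 1.53-fold. ICAM1 was at 1.40 times its MD-224 level (0.878 to 2.23, limma adjusted p = 0.235), and it was called with the replicate block, which paired the libraries (adjusted p = 0.0204). The 7 called genes did not overlap between the groups, as in 48.5% of all genes. Their adjusted p-values from limma ran from 6.45e-06 for TRAF1 to 0.015 for NFKBIA. The background was 39% called higher (13.9% higher and 7.26% lower with TMM), and the median fold was 2.10 for the members and 1.36 for all genes. With TMM NFKBIZ, TNFAIP3, BIRC3 and TRAF1 stayed called, and the NFKBIA call was lost without MD-224 replicate 1 (adjusted p = 0.0583) or NCS+MD-224 replicate 1 (0.0554).

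With MI-1061 present, NCS raised 4 of the 8 genes on the authors' scale, BIRC3, TRAF1, TNFAIP3 and NFKBIE, and TNFAIP3 and NFKBIE turned to the other side with TMM (log2 -0.06 and -0.18). TRAF1 rose 6.86-fold (4.79 to 9.84, limma adjusted p = 5.92e-08) and BIRC3 3.41-fold (1.92 to 6.05, 0.000754). TNFAIP3 rose 1.46-fold (0.0174) and NFKBIE 1.35-fold (0.0232). NFKBIA (1.24 times, 0.943 to 1.63), RELB (1.02, 0.681 to 1.53), NFKBIZ (0.969, 0.682 to 1.38) and ICAM1 (0.835, 0.525 to 1.33) were not called, and NFKBIA and RELB turned to the other side with TMM (log2 -0.30 and -0.58). The 4 called genes, BIRC3, TRAF1, TNFAIP3 and NFKBIE, had no overlap between the groups' libraries, as in 60.2% of all genes, and the other 4 overlapped. The background was 55.9% called higher (30.4% higher and 23.6% lower with TMM), and the members' median fold of 1.29 lay below the 1.63 of all genes. With TMM, NFKBIZ and ICAM1 were called lower (log2 -0.66 and -0.87). MI-1061 replicate 1 was the lowest library of its group for 7 of the 8 genes. Without it 2 of the 8 stayed called, with 1877 of all genes called. Without it the adjusted p was 0.079 for NFKBIE and 0.13 for TNFAIP3, and without NCS+MI-1061 replicate 1 it was 0.0707 and 0.0729. NFKBIE was also lost without MI-1061 replicate 2 (0.0543) or NCS+MI-1061 replicate 2 (0.0638), and NFKBIA was called without MI-1061 replicate 2 (0.0141).

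**Figure D4:**
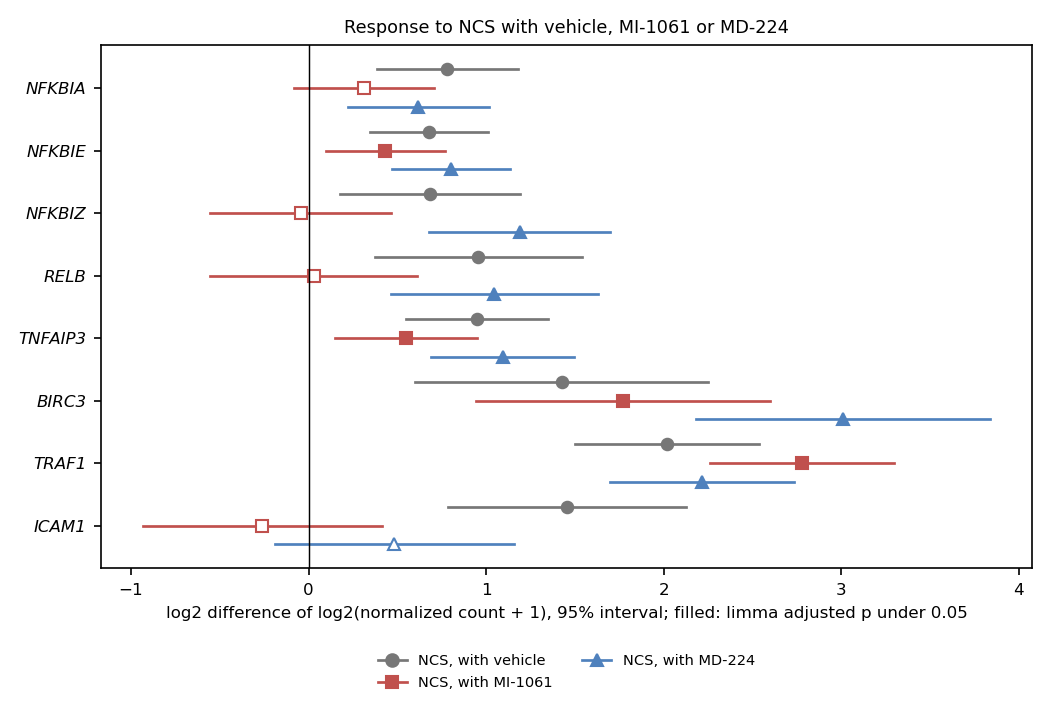
Log2 difference between libraries with and without NCS (horizontal axis) in vehicle (grey), MI-1061 (red) and MD-224 (blue), with 95% intervals from limma and filled symbols for an adjusted p under 0.05. TRAF1 lies above log2 2 in all 3 settings, and with TMM scaling NFKBIA, NFKBIE, RELB and TNFAIP3 with MI-1061 moved to the other side of 0.

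Whether a compound acted differently after NCS was tested by the interaction, the log2 response after NCS minus that without NCS. For MI-1061 the difference was called for ICAM1 alone, at log2 -1.72 (SE 0.45, limma adjusted p = 0.00541). On the authors' scale MI-1061 raised ICAM1 without NCS and left it at 0.799 times NCS after NCS. RELB (-0.93, adjusted p = 0.0628) and NFKBIZ (-0.73, 0.0909) had differences of the same sign and TRAF1 one of the opposite sign (0.76, 0.0859), and none of the 3 was called. The background was 23.5% called higher and 20.8% called lower (23.8% higher and 21.2% lower with TMM). TMM turned no member's interaction with MI-1061. EdgeR on all libraries also called RELB (adjusted p = 0.0492), and DESeq2 called RELB (0.0368) and TRAF1 (0.0416). With the replicate block limma called ICAM1 (adjusted p = 1.45e-05) and RELB (0.0173), with 28.3% of all genes called higher and 24.6% lower. Without MI-1061 replicate 1, NFKBIA, NFKBIZ, RELB and TNFAIP3 were called lower beside ICAM1 (limma adjusted p = 0.0218, 0.0189, 0.00549 and 0.0278). Without DMSO replicate 2, NFKBIZ (0.0142), RELB (0.0407) and TRAF1 (0.0424) were called.

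For MD-224 limma called 0 interactions among the 8, with 2 at an unadjusted p under 0.05, BIRC3 at log2 1.58 (SE 0.55, adjusted p = 0.0761) and ICAM1 at -0.97 (SE 0.45, 0.184). MD-224 left BIRC3 at 0.601 times DMSO without NCS and at 1.80 times NCS after it. EdgeR and DESeq2 on all libraries called BIRC3 (adjusted p = 0.0486 and 0.014), as did limma with TMM (0.0439), without DMSO replicate 3 (0.00808) and without MD-224 replicate 2 (0.047). With the replicate block limma called BIRC3 higher (adjusted p = 0.0423) and ICAM1 lower (0.00689), with 6.9% of all genes called higher and 13% lower. The background was 4.07% called higher and 7.19% called lower (6.51% higher and 4.13% lower with TMM), and NFKBIA was at log2 -0.16, and 0 with TMM.

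**Figure D5:**
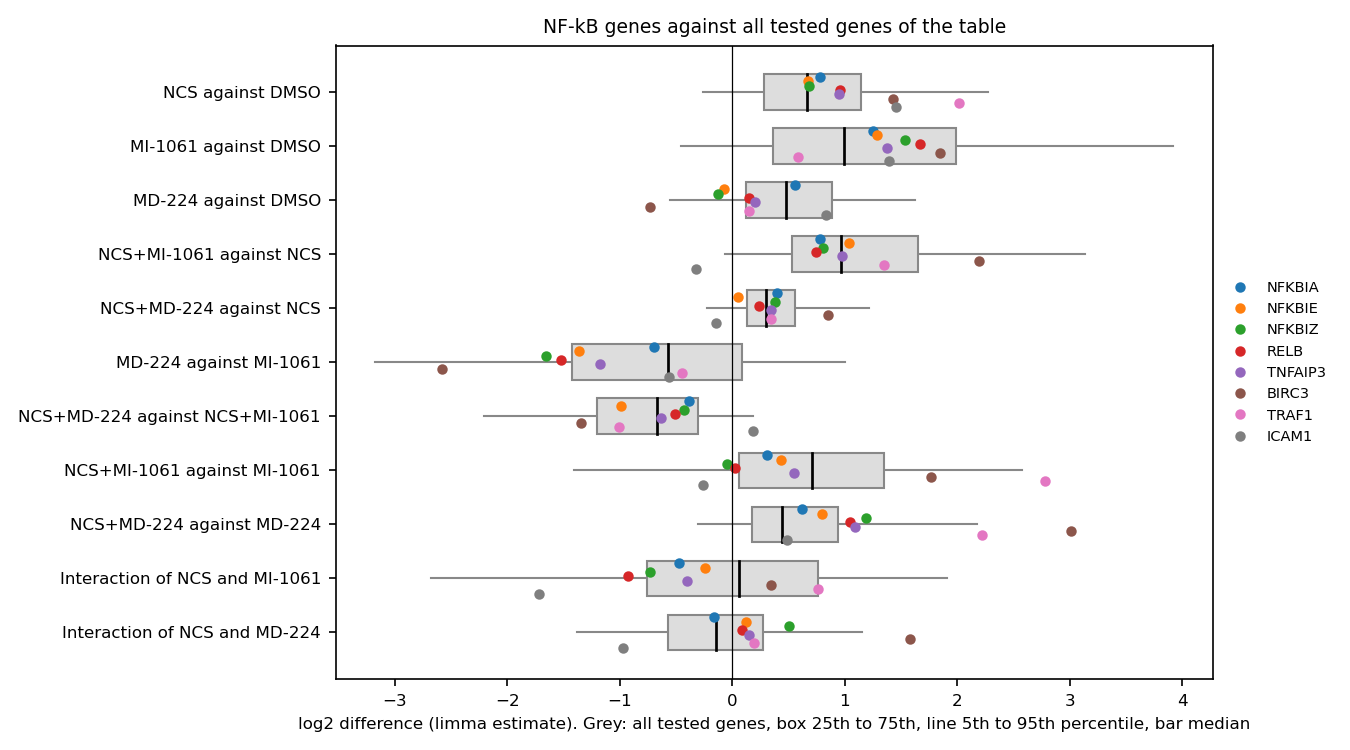
Log2 difference (horizontal axis) of the 8 genes as coloured points over all 3073 tested genes in grey (box from the 25th to the 75th percentile, bar at the median, line from the 5th to the 95th percentile), 1 row per comparison on the authors' scale. In MD-224 against MI-1061 the member median is log2 -1.27 and that of all genes -0.58, and TMM scaling moves the all-gene medians of the 9 comparisons to within 0.10 of 0, which turned single members as the text gives.

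Other genes of the pathway came from fixed lists of subunits, IkB proteins, feedback regulators, kinases and adaptors, receptors, ligands, targets and the ICAM and adhesion family, 135 genes of which 40 are among the 3074 listed genes. Every listed gene had an NCS+MI-1061 mean at least 1.75 times its DMSO mean. The counts below describe only pathway genes that meet this, not the pathway as a whole. RELB was the 1 of 5 subunit genes among them, and NFKBIA, NFKBIE and NFKBIZ the 3 of 6 IkB genes. The remaining 32 genes outside the members were counted in each comparison. After NCS alone 24 of 32 were called higher (15 higher and 4 lower with TMM), against 54% of all genes, with a median fold of 3.05 against 1.58 for all genes. Those with the smallest p were the cytokines IL1B 14.8-fold, IL32 8.58-fold and IL1A 6.53-fold, the anti-apoptotic BCL2A1 8.38-fold from 2 to 9 reads in DMSO, the acute-phase gene SAA1 7.79-fold and the receptor TNFRSF9 5.03-fold. The ligands IL1A and IL1B start NF-kB signalling through the interleukin-1 receptor.

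With MI-1061 alone 26 of 32 were called higher and 1 lower (13 and 6 with TMM), against 67.6% of all genes called higher, and the median fold was 2.81 against 1.99. SAA1 19.3-fold, CSF1 4.67-fold, IRAK2 3.25-fold, IL1RAP 3.19-fold, BCL2L1 2.88-fold and TNIP1 2.69-fold had the smallest p. TNIP1 is a partner of A20, IL1RAP a subunit of the interleukin-1 receptor and IRAK2 a kinase below it. With MD-224 alone 13 were higher and 1 lower (2 and 6 with TMM), against 39.9% of all genes called higher, with a median of 1.41 against 1.40 for all genes. IL1B was 5.52-fold higher and CSF1 2.24-fold, while BCL2A1 was the 1 called lower, with 2 to 9 reads in the DMSO libraries and 1 read in each MD-224 library. Between the compounds, 19 of 32 were lower with MD-224 than with MI-1061 and 2 higher (10 and 4 with TMM), against 49.8% of all genes called lower, with a median of 0.546 times against 0.671. SAA1 (0.0791 times), BCL2A1 (1 read in each MD-224 library and 9 to 14 with MI-1061), SDC4 (0.301), IL1RAP (0.438), TNIP1 (0.454) and BCL2L1 (0.538) led by p.

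After NCS, 19 of 32 rose with MI-1061 (7 higher and 10 lower with TMM) and 4 with MD-224 (4 with TMM), against 70.5% and 15.1% of all genes, with medians of 1.58 against 1.96 and 1.27 against 1.23. The 4 were IL1B (4.32-fold), IL1A (2.73-fold), the kinase adaptor TAB3 (1.71-fold) and BCL2L1 (1.66-fold). With MI-1061 the same genes were at 9.80, 7.76, 5.78 and 2.92 times NCS. Directly compared after NCS, 14 of 32 were lower with MD-224 than with MI-1061 (4 lower and 5 higher with TMM), against 54.7% of all genes, with a median of 0.727 times against 0.629, led by TAB3 at 0.296 times and SDC4 at 0.327 times. NCS raised 17 of 32 and lowered 2 in the presence of MI-1061 (12 and 10 with TMM), against 55.9% of all genes called higher, with a median fold of 1.53 against 1.63. With MD-224 present it raised 25 and lowered 1 (17 and 2 with TMM), against 39% called higher, with a median fold of 2.40 against 1.36. IL1A rose 41.8-fold with MI-1061 present. With MD-224 present BCL2A1 rose from 1 read in each library to 83.1, 99.1 and 137 normalized counts, and no fold is given from so few reads. The interaction with MI-1061 was called higher for 3 genes and lower for 9 (3 and 10 with TMM), against 23.5% and 20.8% of all genes, with TAB3 and IL1A higher and CSF1, IRAK2, SAA1 and TNIP3 lower among the smallest p. The interaction with MD-224 was called for 3 higher and 2 lower, against 4.07% and 7.19% of all genes, and TMM gave the same counts.

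Cell type markers moved with some of these comparisons. The summed level of the osteoblast-lineage markers COL1A2 and SPP1 was 11120 to 20330 normalized counts in the DMSO libraries, 8144 to 14620 with MI-1061 and 27500 to 41490 with MD-224. It was 38210 to 48450 with NCS, 40590 to 50360 in NCS+MI-1061 and 42590 to 55350 in NCS+MD-224. COL1A2 made up most of this sum, with a DMSO mean of 14390 against 765 for SPP1. The 2 genes went opposite ways with either compound alone. With MI-1061, COL1A2 was at 0.68 and SPP1 at 2.24 times the DMSO mean. With MD-224 they were at 2.29 and 0.88 times. Of 10 haematopoietic markers 3 were among the listed genes (CD68, ITGAM and LAPTM5). Their summed level was 440 to 1111 normalized counts in the DMSO libraries, 2412 to 3052 with MI-1061, 783 to 1085 with MD-224 and 2302 to 2498 with NCS. It was 4852 to 4962 in NCS+MI-1061 and 3418 to 4506 in NCS+MD-224. These 3 genes did not move alike either. With MI-1061 alone LAPTM5 was at 19.1, ITGAM at 15.5 and CD68 at 1.07 times the DMSO mean. Of 5 endothelial markers 2 were among the listed genes (VWF and KDR), with a sum of 150 to 232 in DMSO, 1943 to 3235 with MI-1061 and 197 to 475 in the other 4 groups. No listed marker was at 0 in any library, and of 4 epithelial markers 0 were among the listed genes. The part of such transcripts in the results was not tested.

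Over the 18 libraries the 8 genes moved together to different degrees. Pearson's r of log2 values was highest between NFKBIZ and RELB (0.943) and between TNFAIP3 and BIRC3 (0.938), and lowest between TRAF1 and ICAM1 (0.425). The libraries share groups, size factors and the listing, so these are descriptions. Among 2390 other genes the mean profile of the 8 was most like SUPT5H (r = 0.980), RRAD (0.969), AVPI1 (0.965), ZSWIM4 (0.964) and TAF13 (0.962). Gene by gene, the closest were EPAS1 for NFKBIA (0.971), KDSR for NFKBIE (0.961), AVPI1 for NFKBIZ (0.950), ITGAM for RELB (0.957) and SUPT5H for TNFAIP3 (0.962). For BIRC3 the closest was FCRLA (0.951), for TRAF1 ARL14 (0.987) and for ICAM1 HSD11B1L (0.898), the lowest of the 8. ARL14 had means of 24.4 ± 14.9 in DMSO, 145 ± 13.5 in NCS and 437 ± 92.3 in NCS+MI-1061 (SD, n = 3).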

How the data were processed

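Poly(A)-enriched RNA of 18 SJSA-1 libraries was sequenced by the submitters. The submitters' processing notes name the build GRCh38, DESeq2 2.11.40.6, HISAT2 2.0.5.2 and featureCounts 1.6.3. The deposited values are a signal unit, normalized counts per gene, taken from 1 table of 3074 genes. Each library's values were whole multiples of 1 step (100% within 0.01), so read counts were recovered, with size factors of 0.651 to 1.65. EdgeR on those reads called from 332 to 2231 genes per comparison.

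The main test was limma 3.58.1 with a variance trend on log2(value + 1) for genes that reached 10 in 3 or more libraries, with all 6 groups in 1 fit (R 4.3.3). Alternatives were a pseudocount of 5, no filter, a mean of at least 50, TMM, only the compared groups, a replicate block, each library left out, and edgeR 4.0.16 and DESeq2 1.42.0 on reads. The versions on all 18 libraries were chosen after seeing the data. The scripts were tested on simulated data.

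Replicate numbers were taken to pair libraries where every same-numbered pair's deviations from the group means correlated above 0.1. This held in 7 comparisons (lowest r from 0.102 to 0.215) and not in NCS against DMSO (0.0627), NCS+MI-1061 against MI-1061 (0.0197) or the interactions. The members and lists were chosen with earlier results of these data known. Named beyond the members were up to 6 listed pathway genes of smallest p per comparison, MDM2 and CDKN1A as checks, and the genes most like the members by Pearson's r. Per-kilobase levels divide by the union of exons in GENCODE v29. Promoters and gene positions are from RefSeq. One protocol label writes the inhibitor's digits differently, and the titles were followed.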

Additional observations from a re-analysis of the deposited data

Results flagged for a closer look

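The response of ICAM1 to MI-1061 differed between cells with and without NCS by the test of the difference itself, at log2 -1.72 (SE 0.45, limma adjusted p = 0.00541). Such a difference was common, with 23.5% of all tested genes called higher and 20.8% called lower. Without NCS, ICAM1 was 2.62-fold higher with MI-1061 than with DMSO, with 3 MI-1061 libraries above all DMSO libraries, as in 65.2% of all genes. After NCS it was at 0.799 times the NCS level, and the libraries of the pair of groups overlapped. Over the 12 fits that each left out 1 library the difference ran from -2.08 to -1.41, with adjusted p-values of 0.000867 to 0.0173. With TMM the difference was -1.71 (0.00503), but the responses behind it moved: 1.31-fold without NCS, not called (0.291), and 0.401 times NCS after it, called lower (0.00262).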

How the results depend on the processing

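A pseudocount of 5, no filter and a mean of at least 50 left every member's direction and call in place in all 11 comparisons. Every listed gene had a higher mean in NCS+MI-1061 than in DMSO, so centring these genes shifts the members by construction. TMM scaling, which centres the listed genes, changed most. It called 1 member in NCS against DMSO, 1 in MI-1061 against DMSO, 2 in NCS+MI-1061 against NCS, 0 in NCS+MD-224 against NCS+MI-1061 (limma), 4 in NCS+MD-224 against MD-224 and 1 in the NCS and MD-224 interaction. It turned the sign of TRAF1 in MI-1061 against DMSO (-0.40), of RELB, TNFAIP3 and TRAF1 in MD-224 against DMSO (-0.35, -0.29, -0.34), of NFKBIA, NFKBIZ, RELB and TNFAIP3 in NCS+MI-1061 against NCS (-0.21, -0.19, -0.25, -0.02), of NFKBIE and RELB in NCS+MD-224 against NCS (-0.28, -0.09), of TRAF1 in MD-224 against MI-1061 (0.06), of NFKBIA, NFKBIZ, RELB and TNFAIP3 in NCS+MD-224 against NCS+MI-1061 (0.28, 0.24, 0.16, 0.04), of NFKBIA, NFKBIE, RELB and TNFAIP3 in NCS+MI-1061 against MI-1061 (-0.30, -0.18, -0.58, -0.06), and set NFKBIA in the NCS and MD-224 interaction to 0.

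With only the compared groups fitted, 0 members were called by limma in MD-224 against DMSO, 2 in NCS+MD-224 against NCS and 7 in NCS+MD-224 against NCS+MI-1061. Of the 3073 tested genes 795, 589 and 1914 were called in these fits. EdgeR and DESeq2 on the libraries without NCS each called 0 in MD-224 against DMSO. On all libraries edgeR called 2 and DESeq2 3 in the MI-1061 interaction, and each called 1 in the MD-224 interaction, and RELB in NCS+MI-1061 against MI-1061 was at -0.05 in both. Over all genes edgeR called 1363 and DESeq2 1470 in the MI-1061 interaction, and 332 and 493 in the MD-224 interaction.

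With the replicate block, limma called 2 members in the MI-1061 interaction (ICAM1 and RELB, adjusted p = 1.45e-05 and 0.0173) and 2 in the MD-224 interaction (BIRC3 and ICAM1, 0.0423 and 0.00689). The numbers did not meet the rule for pairing in either interaction. Of all tested genes 1627 and 612 were called with the block. EdgeR with the block also called 2 and 2 members (1635 and 600 genes in all), with RELB in NCS+MI-1061 against MI-1061 at -0.01. In NCS against DMSO the block called 8 members and 1873 genes higher, against 1659 without it, and it changed no call other than those given here and in the text. For 17 of the 18 libraries, the mean correlation of deviations with other groups' libraries was highest for their own number.

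Counts over all genes moved too. TMM took the genes called from 1699 to 925 in NCS against DMSO, 1311 to 683 in MD-224 against DMSO, 2191 to 1326 in NCS+MI-1061 against NCS, 465 to 122 in NCS+MD-224 against NCS, 1703 to 903 in NCS+MD-224 against NCS+MI-1061 and 1216 to 651 in NCS+MD-224 against MD-224. In MD-224 against DMSO they were 795 with only the compared groups and 867 by edgeR without NCS libraries. In NCS+MD-224 against NCS the replicate block gave 755 (edgeR 821), and leaving out NCS+MD-224 replicate 1 or NCS replicates 1, 2 or 3 gave 186, 298, 287 or 283. In the MD-224 interaction the 346 genes called became 612 with the block (edgeR 600), and 179, 182, 172 or 219 without MD-224 replicate 3, NCS replicate 2, NCS replicate 3 or NCS+MD-224 replicate 1.

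Leaving out each library gave 0 to 2 members called in MD-224 against DMSO, 2 to 4 in NCS+MI-1061 against MI-1061, 1 to 5 in the MI-1061 interaction and 0 to 1 in the MD-224 interaction, where limma called 2, 4, 1 and 0. Signs turned in MD-224 against DMSO for NFKBIE (-0.24 to 0.02), NFKBIZ (-0.33 to 0.15), RELB (-0.11 to 0.33) and TRAF1 (-0.02 to 0.43), in NCS+MD-224 against NCS for NFKBIE (-0.02 to 0.17), in NCS+MI-1061 against MI-1061 for NFKBIZ (-0.30 to 0.19) and RELB (-0.33 to 0.30), in the MI-1061 interaction for BIRC3 (-0.06 to 0.90), and in the MD-224 interaction for RELB (-0.10 to 0.34) and TRAF1 (-0.09 to 0.37). Apart from what the constructions show, the cause was not tested. With 3 libraries a group and a coefficient of variation up to 56.7%, differences under about the intervals given were not detectable.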
